A study of Mus musculus with 8 samples.

Results

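The 10 genes described here encode the sensing and signalling core of the AMPK and mTOR pathways. They are the AMPK subunits Prkaa1, Prkaa2, Prkab1 and Prkag1, the AMPK-activating kinase gene Stk11, the kinase gene Mtor with its complex partners Rptor and Rictor, and the mTOR inhibitors Tsc1 and Tsc2. They were taken by symbol from the 17983 symbols of the deposited tables, and all 10 were found. All 8 libraries came from brains of male db/db mice, which carry a leptin receptor mutation and become obese and diabetic. In the ketogenic group, 4 libraries came from mice given a ketogenic diet, which is rich in fat and very poor in carbohydrate. In the control group, 4 libraries came from db/db mice given a normal diet. The diets started when the mice were 9 weeks old, and whole brains were taken at 6 months. No group without the db/db mutation was used here, so every value is for the diabetic background. The labels do not say that each library is a separate mouse, so p-values measure the spread between these libraries, which may be in part technical.

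AMPK (AMP-activated protein kinase) is a trimer of a catalytic alpha, a scaffolding beta and a nucleotide-binding gamma subunit. It is switched on when cellular AMP rises, by phosphorylation through LKB1, the product of Stk11, or through calcium-dependent kinases, and it turns energy-consuming synthesis down. mTOR is a kinase that promotes protein synthesis and growth and works in 2 complexes, mTORC1 with Raptor (Rptor) and mTORC2 with Rictor. The TSC1 and TSC2 proteins hold mTORC1 off through the small GTPase Rheb, and AMPK acts on TSC2 and on Raptor, so the pathways oppose each other. Most of this control is by phosphorylation, which RNA counts do not measure.

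Total counts ran from 38163795 to 40233361 in ketogenic libraries and from 34450860 to 38738800 in control libraries. Neuron markers summed to 8108 to 9570 CPM (counts scaled to a common library size) in ketogenic and 8683 to 9629 CPM in control libraries, and 0 of 9 passed the test used below. Astrocyte markers summed to 3638 to 4204 CPM in ketogenic and 3848 to 4623 CPM in control libraries, with 4 of 7 lower (Gfap, Aqp4, Aldh1l1 and Gja1). Blood cell markers summed to 69.4 to 114 CPM in ketogenic and 15.3 to 52.4 CPM in control libraries, with 4 of 5 higher, and no marker of any list was at 0 in all libraries. Pericyte markers summed to 78.6 to 93.6 CPM in ketogenic and 95.3 to 126 CPM in control libraries, without overlap, with 1 of 4 lower (Rgs5). Rgs5 held most of the pericyte marker counts in every library. The log2 fold changes of Pdgfrb, Kcnj8 and Abcc9 were -0.15, 0.05 and 0.08, and none of these passed. Of 7 microglia markers 1 was higher. Pituitary markers summed to 13.5 CPM in ketogenic replicate 4 and 3.30 CPM in ketogenic replicate 2, against 0.346 to 1.27 CPM in the other libraries. Oligodendrocyte markers, with 0 of 7 passing, were highest in ketogenic replicate 4, at 6387 CPM. Choroid plexus markers summed to 1060 to 1365 CPM in ketogenic and 588 to 1137 CPM in control libraries, with 0 of 5 passing. In whole brain, fewer cells of a type and less RNA per cell cannot be told apart, and the part of these markers in the results below was not tested.

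None of the 10 genes differed between diets past the threshold. By the quasi-likelihood test of edgeR, with p-values adjusted by the Benjamini-Hochberg method over 14895 tested genes, 0 of 10 passed an adjusted p of 0.05. Among all tested genes 6.52% passed, 3.3% higher and 3.22% lower. At that share a count of 0 of 10 is not a result about these genes, and a p that misses the threshold does not show that a gene was equal between diets. At an unadjusted p under 0.05 there were 4 of 10 (Mtor and Prkag1 higher, Prkaa2 and Prkab1 lower), against 24.6% of all tested genes. The DESeq2 Wald test called 1 of the 10, Mtor, and 1719 of 13448 genes with an adjusted p. For limma-voom these counts were 0 and 869 of 14895, and for limma on log2(FPKM + 1) 0 and 489 of 14895. The median log2 fold change of the 10 was 0.00, from -0.25 to 0.16, and that of all tested genes was 0.00. The median size of the change was 0.11 for the 10 and 0.13 for all tested genes.

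**Figure D1:**
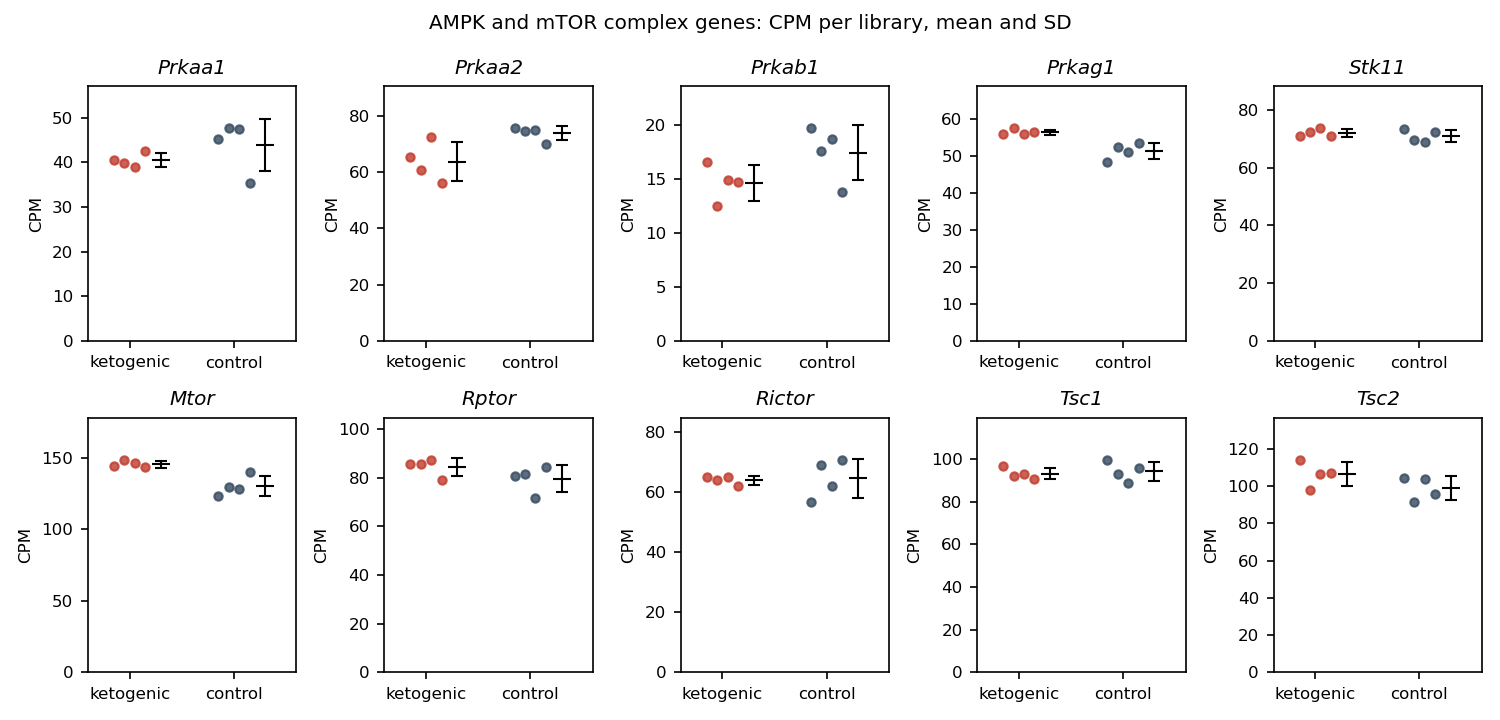
Points are CPM in each of the 4 ketogenic (red) and 4 control (dark) libraries for each of the 10 genes, on axes that start at 0, and bars are the mean ± SD. The 4 ketogenic points lie above all control points for Mtor and Prkag1 only, and control replicate 4 lies apart from the other control libraries for Prkaa1 and Prkab1.

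Both catalytic AMPK genes had lower means in ketogenic brains without passing. Prkaa2 (chr4:105029874-105109890, minus strand, GRCm38), which encodes the alpha2 subunit, had 65.5, 60.9, 72.4 and 56.1 CPM in ketogenic replicates 1 to 4, against 75.5, 74.7, 74.9 and 70.0 CPM in control replicates 1 to 4. Only ketogenic replicate 3 reached into the control range, and of the control libraries it was above control replicate 4 alone. The log2 fold change was -0.21 ± 0.07 (SE), with a 95% interval of -0.36 to -0.06 and an edgeR adjusted p of 0.0831. It passed without ketogenic replicate 3 (-0.27, edgeR adjusted p = 0.0295), in a fit where 714 of 15046 tested genes passed. Without control replicate 4 it missed the threshold (-0.23, edgeR adjusted p = 0.0520). After the trends of each library on GC content and gene length were taken out, it was -0.09 (adjusted p = 0.539).

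Prkaa1 (chr15:5143861-5181899, plus strand), which encodes the alpha1 subunit, had 40.5, 39.8, 38.9 and 42.6 CPM in ketogenic replicates 1 to 4, against 45.3, 47.6, 47.5 and 35.3 CPM in control replicates 1 to 4. Control replicate 4 was below all ketogenic libraries, and the other 3 control libraries were above them. The log2 fold change was -0.12 ± 0.09 (SE, edgeR adjusted p = 0.436), with a 95% interval of -0.30 to 0.06. Without control replicate 4 it was -0.21 and passed (adjusted p = 0.0473), and after removal of GC and length trends it was 0.01. Without that library 1900 of 15013 tested genes passed, against 971 of 14895 with all libraries.

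The beta1 gene Prkab1 (chr5:116013586-116024508, minus strand) was the least abundant of the 10 by read count. It had 16.6, 12.5, 14.9 and 14.7 CPM in ketogenic replicates 1 to 4, against 19.7, 17.6, 18.7 and 13.8 CPM in control replicates 1 to 4. Control replicate 4 lay within the ketogenic range. The log2 fold change was -0.25 ± 0.12 (SE, edgeR adjusted p = 0.195), with a 95% interval of -0.50 to -0.01. It was -0.35 without control replicate 4, when 1900 genes passed in all, this one among them (adjusted p = 0.0411). The paralog Prkab2, for beta2, averaged 43.6 ± 1.95 CPM in ketogenic and 40.0 ± 2.90 CPM in control libraries (SD, n = 4 each), with a log2 fold change of 0.13 ± 0.07 (SE, edgeR adjusted p = 0.28).

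The gamma1 gene Prkag1 (chr15:98812797-98831521, minus strand), whose product binds AMP and ATP, had a small difference without overlap. It had 55.7, 57.3, 55.7 and 56.4 CPM in ketogenic replicates 1 to 4, against 48.2, 52.2, 51.0 and 53.4 CPM in control replicates 1 to 4. The SD of the ketogenic libraries was 0.76 CPM and that of the control libraries 2.22 CPM, and every ketogenic library was above the highest control library. The log2 fold change was 0.14 ± 0.06 (SE), with a 95% interval of 0.01 to 0.26 and an edgeR adjusted p of 0.157. Groups without overlap were found for 2 of the 10 genes, Prkag1 and Mtor, both higher, against 13.7% of all tested genes (7.22% higher and 6.51% lower). The gamma2 gene Prkag2 had a log2 fold change of 0.01, and the gamma3 gene Prkag3, known as a muscle isoform, had 0 to 7 counts per library and was not tested.

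Per length, the alpha genes were near equal and gamma1 was the leading gamma gene. The share of Prkaa2 in the summed FPKM (deposited values scaled by gene length and depth) of Prkaa1 and Prkaa2 was 51.0% ± 3.56 in ketogenic and 52.9% ± 2.73 in control libraries (SD, n = 4 each). Prkab1 made up 47.8%, 42.5%, 44.1% and 44.9% of the summed FPKM of Prkab1 and Prkab2 in ketogenic replicates 1 to 4, against 52.5%, 54.1%, 52.7% and 45.8% in control replicates 1 to 4. Control replicate 4 overlapped the ketogenic range, and the other 3 control libraries lay above it. The mean share of Prkab1 was 6.44 percentage points lower in ketogenic libraries. Prkag1 made up 78.7% ± 1.18 of the summed FPKM of Prkag1 and Prkag2 in ketogenic and 77.1% ± 1.47 in control libraries. This share depends on the 1 length per gene behind FPKM, 1766 bases for Prkag1 and 10553 bases for Prkag2. By read count Prkag2 was above Prkag1, at a mean of 91.2 against 56.3 CPM in ketogenic and 90.7 against 51.2 CPM in control libraries. These shares are descriptions and were given no test.

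**Figure D2:**
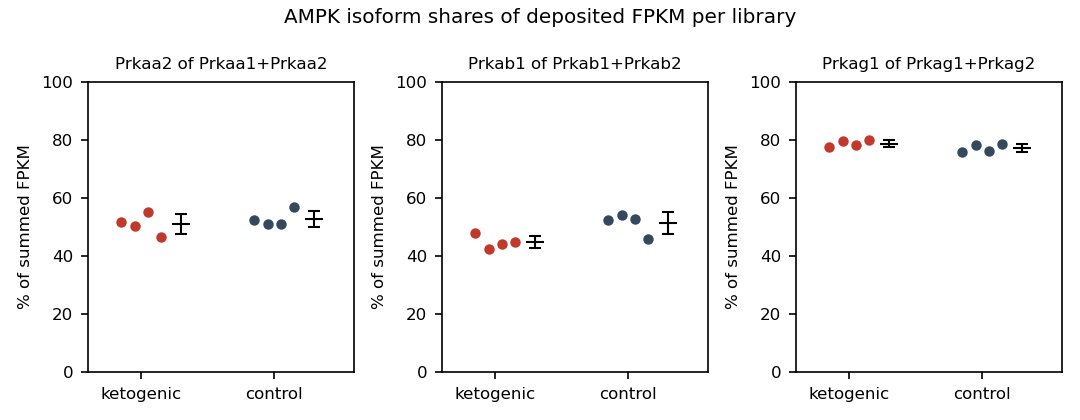
Each panel plots the share of 1 AMPK subunit gene in the summed deposited FPKM of its paralog pair, in percent, for 4 ketogenic (red) and 4 control (dark) libraries, with mean ± SD. The Prkab1 share averaged 44.8% in ketogenic and 51.3% in control libraries, with control replicate 4 inside the ketogenic range.

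Stk11 (chr10:80115803-80130682, plus strand), the gene of the AMPK-activating kinase LKB1, had the narrowest spread of the 10, at 2.40% of its mean FPKM over the 8 libraries. It averaged 72.0 ± 1.25 CPM in ketogenic and 71.0 ± 2.11 CPM in control libraries (SD, n = 4 each). The 95% interval of its log2 fold change was -0.09 to 0.13, or 0.939-fold to 1.10-fold (edgeR adjusted p = 0.858). Its exons share bases with Cbarp on the opposite strand, and the use of strand in counting is not given in the sources used here.

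Mtor (chr4:148448611-148557683, plus strand), the kinase gene of both mTOR complexes, had the smallest p of the 10. It had 144, 148, 146 and 143 CPM in ketogenic replicates 1 to 4, against 124, 129.6, 128 and 140.1 CPM in control replicates 1 to 4. All ketogenic libraries were above all control libraries, with control replicate 4 the nearest. Mtor had a log2 fold change of 0.16 ± 0.05 (SE), with a 95% interval of 0.05 to 0.27 and an edgeR adjusted p of 0.0775. Of 21 alternative fits it passed in 2. These were the DESeq2 Wald test (adjusted p = 0.0348) and edgeR without control replicate 4 (0.20, adjusted p = 0.0204). Over all genes these 2 fits called 1719 and 1900, against 971 in the main fit. After removal of GC and length trends Mtor was at 0.13 (edgeR adjusted p = 0.19), and its adjusted p reached 0.22 across the 21 fits.

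The genes of the partner proteins had smaller differences. Rptor (chr11:119602905-119899576, plus strand), for the mTORC1 scaffold Raptor, averaged 84.3 ± 3.63 CPM in ketogenic and 79.6 ± 5.53 CPM in control libraries (SD, n = 4 each). Its log2 fold change had a 95% interval of -0.05 to 0.21 (edgeR adjusted p = 0.439). Rictor (chr15:6708379-6800401, plus strand), for the mTORC2 scaffold, averaged 64.0 ± 1.49 CPM in ketogenic and 64.6 ± 6.53 CPM in control libraries. Its 95% interval was -0.16 to 0.13 (edgeR adjusted p = 0.937), and control libraries ran from 56.6 to 70.7 CPM, on both sides of the ketogenic range of 61.9 to 65.2 CPM. The FPKM ratio of Rptor to Rictor was 1.58 ± 0.03 in ketogenic and 1.48 ± 0.15 in control libraries, and control replicate 1, at 1.70, was above every other library.

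Neither TSC gene passed the threshold, with log2 fold changes of -0.02 for Tsc1 and 0.11 for Tsc2. Tsc1 (chr2:28641228-28691167, plus strand), for hamartin, averaged 93.1 ± 2.69 CPM in ketogenic and 94.2 ± 4.47 CPM in control libraries (SD, n = 4 each), with a 95% interval of -0.13 to 0.10 (edgeR adjusted p = 0.889). Tsc2 (chr17:24595816-24632630, minus strand), for tuberin, the subunit that acts on Rheb, averaged 106 ± 6.52 CPM in ketogenic and 98.9 ± 6.36 CPM in control libraries. Its 95% interval was -0.02 to 0.24 (edgeR adjusted p = 0.312), and its exons share bases with Pkd1 on the opposite strand. The FPKM ratio of Tsc2 to Tsc1 was 1.46 ± 0.07 in ketogenic and 1.34 ± 0.10 in control libraries, and the groups overlapped.

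**Figure D3:**
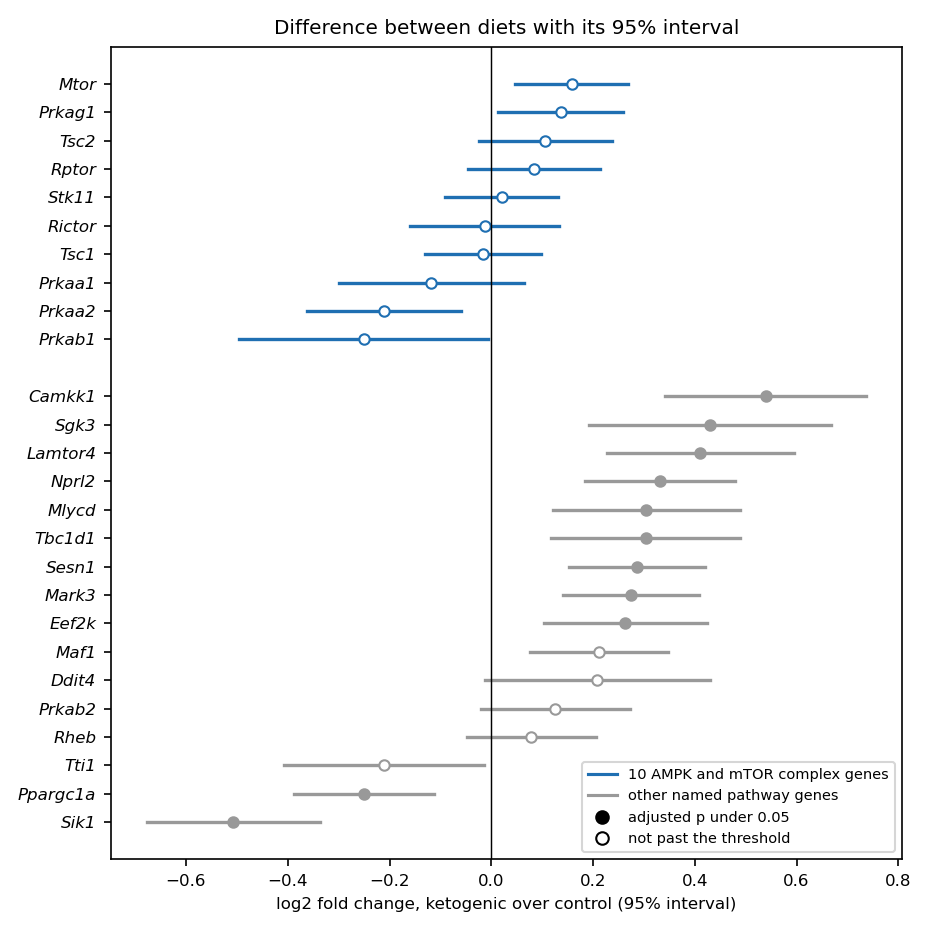
Points are log2 fold changes, ketogenic over control, and lines their 95% intervals from the edgeR fit, for the 10 genes (blue) and 16 other named pathway genes (grey), with filled points past an adjusted p of 0.05. All 10 blue points are open and lie between -0.25 and 0.16, while filled grey points reach -0.51 (Sik1) and 0.54 (Camkk1).

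On the FPKM scale, which compares genes by 1 fixed length each, the 10 genes fell into steps. Prkag1 was highest at 30.4 ± 2.00 FPKM over the 8 libraries (SD), followed by Stk11 at 22.0 ± 0.53 FPKM, and neither range met its neighbour below. Tsc2 at 16.2 ± 1.08 FPKM and Mtor at 16.0 ± 1.19 FPKM had overlapping ranges, and both lay above Tsc1. From Tsc1 at 11.6 ± 0.40 FPKM downwards every neighbour in the order overlapped the next. That order was Rptor at 10.3, Prkaa2 at 8.37, Prkaa1 at 7.74, Prkab1 at 7.42 and Rictor at 6.78 FPKM. All 10 had a mean FPKM above that of 53.0% of tested genes or more.

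**Figure D4:**
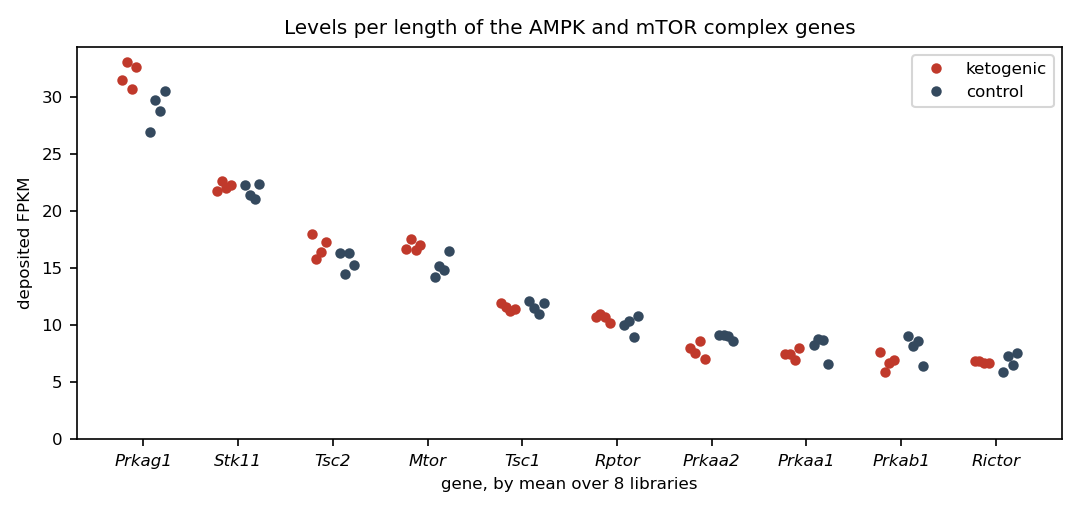
Points are deposited FPKM in each ketogenic (red) and control (dark) library, with genes in the order of their mean over the 8 libraries. Prkag1, at 26.9 to 33.0 FPKM, stands above Stk11, at 21.1 to 22.6 FPKM, and the 6 genes from Tsc1 to Rictor overlap their neighbours.

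Pairs of these genes differed in how alike their values ran across libraries. Prkag1 and Mtor had a Pearson r of 0.96 over the 8 libraries in log2 CPM, and Prkaa1 and Prkab1 of 0.77, while Prkab1 and Mtor had -0.88. These are descriptions over 8 libraries that share the diet groups. The genes most like Mtor among 13277 genes of at least 1 CPM were Abl2 (r = 0.99), Ctnnb1 (0.99) and Pdrg1 (0.99). Those most like Prkaa2 were Rgs4 (0.98), Dusp6 (0.98) and Plcb1 (0.97).

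Promoter sequences, from RefSeq on GRCm38.p6, matched all 10 genes by symbol. They are shown for Mtor and Prkag1, the pair that ran closest together, for Prkaa2, the lower member with the smallest p, and for Lamtor4, an mTORC1 activator gene described below. Each is the 250 bases before the annotated start, 5′ to 3′ on the gene's strand, at chr4:148448332-148448581, chr15:98831509-98831758, chr4:105109899-105110148 and chr5:138255232-138255481 in that order. Capitals mark 4 motifs searched on both strands, a GC box GGGCGGGG, an ETS core TTCCGG, an E-box CACGTG and the core TGACG of a cAMP response element.
Mtor: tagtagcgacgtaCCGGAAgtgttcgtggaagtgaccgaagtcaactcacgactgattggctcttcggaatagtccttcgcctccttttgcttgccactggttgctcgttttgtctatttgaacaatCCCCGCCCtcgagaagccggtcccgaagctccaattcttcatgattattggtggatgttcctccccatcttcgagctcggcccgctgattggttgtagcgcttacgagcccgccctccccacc
Prkag1: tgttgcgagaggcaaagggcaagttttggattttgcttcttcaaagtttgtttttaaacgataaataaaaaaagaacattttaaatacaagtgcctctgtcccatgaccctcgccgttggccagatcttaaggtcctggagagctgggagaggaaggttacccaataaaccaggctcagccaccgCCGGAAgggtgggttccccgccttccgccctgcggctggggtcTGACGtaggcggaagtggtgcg
Prkaa2: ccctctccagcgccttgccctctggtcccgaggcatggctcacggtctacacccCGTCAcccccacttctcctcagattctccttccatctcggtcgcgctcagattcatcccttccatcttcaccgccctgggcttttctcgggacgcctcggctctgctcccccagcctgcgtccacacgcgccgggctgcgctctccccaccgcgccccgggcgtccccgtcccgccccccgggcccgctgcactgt
Lamtor4: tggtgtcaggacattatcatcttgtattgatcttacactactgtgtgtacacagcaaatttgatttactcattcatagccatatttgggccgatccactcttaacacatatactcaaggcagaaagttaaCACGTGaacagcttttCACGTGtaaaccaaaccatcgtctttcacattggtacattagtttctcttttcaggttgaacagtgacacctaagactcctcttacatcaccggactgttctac
None of these motifs overlapped another in these windows. The GC box was in the windows of 2 of the 10 genes (Mtor and Rictor) and in 16.1% of 32851 promoters. The ETS core was in those of 5 of 10 (Mtor, Prkab1, Prkag1, Rictor and Tsc2) and in 3952 of those promoters. The TGACG core was in those of 5 of 10 (Prkaa2, Prkag1, Rptor, Stk11 and Tsc1) and in 17.8%. The E-box was in those of 0 of 10 and in 6.02% of promoters, and Lamtor4 held it at 2 places. The motifs were chosen after values of these genes had been seen, and a match is a description of letters only.

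Around these 10 genes, 12 of 103 other tested pathway genes passed, 9 higher and 3 lower, or 11.7% against 6.52% of all tested genes. The lists hold 104 genes and their median log2 fold change was 0.04. They were chosen with earlier results of these data known, so the larger share is not independent support for a pathway change. Leaving out single libraries moved the count higher to 1 (ketogenic replicate 2 or control replicate 1), 2 (control replicate 2), 4 (control replicate 3), 5 (ketogenic replicate 3) or 14 (control replicate 4). Without ketogenic replicate 1 or 4 the count higher was 6. The count lower moved to 1 (control replicate 2) or 2 (ketogenic replicate 1, 2 or 4 or control replicate 1 or 3). Calls over all genes moved as well, from 971 to 196 without ketogenic replicate 2 and to 146 without control replicate 1. They were 588, 714 and 537 without ketogenic replicates 1, 3 and 4. Without control replicates 2, 3 and 4 they were 205, 423 and 1900. With ketogenic replicates 3 and 4 left out together, every one of the 12 calls but that of Camkk1 was lost. In that fit 90 of 15212 tested genes passed in all.

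**Figure D5:**
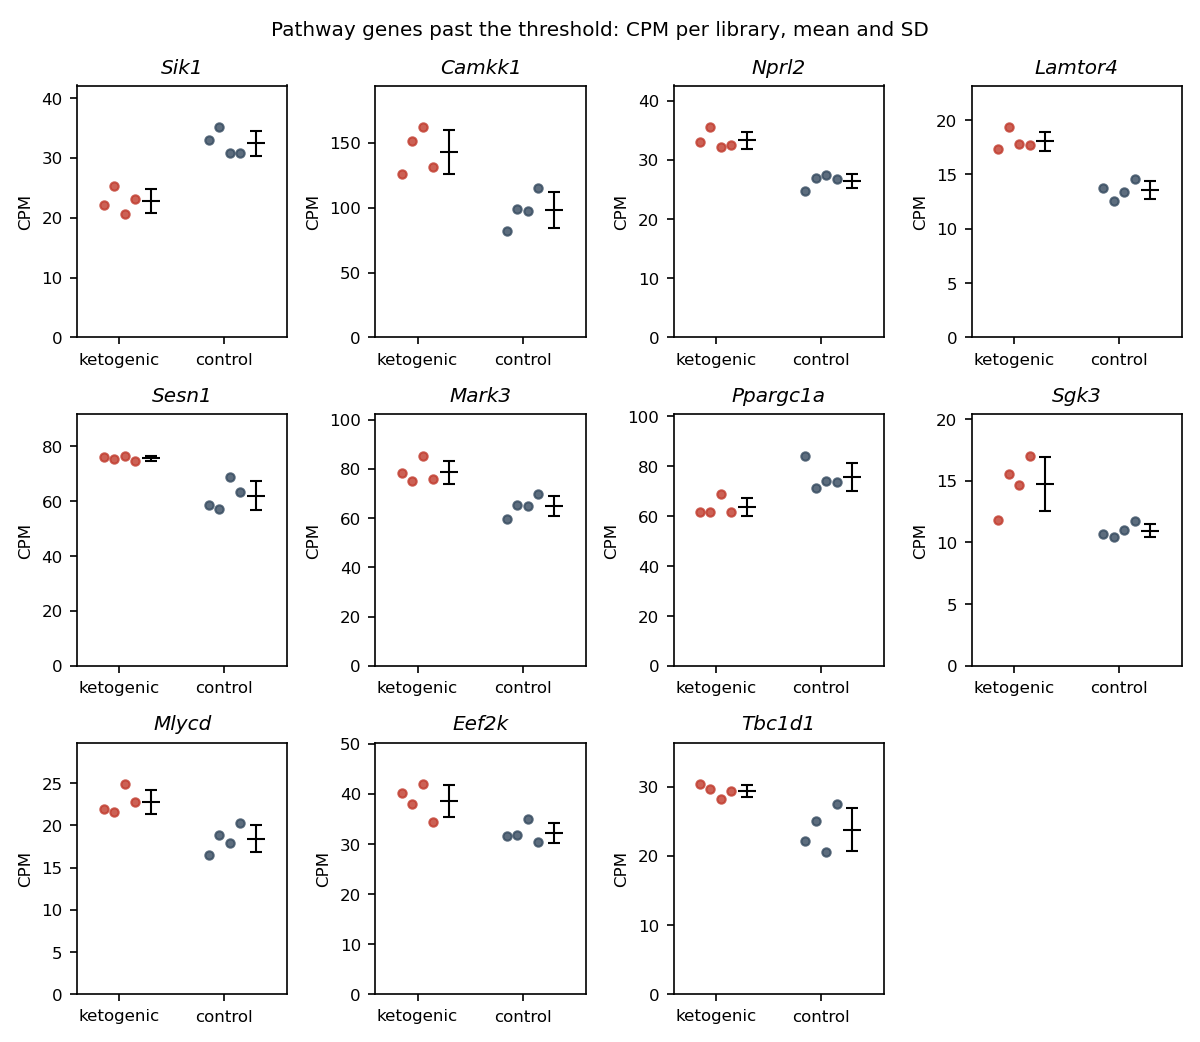
Points are CPM in each ketogenic (red) and control (dark) library for 11 of the pathway genes past the threshold, in order of p, with mean ± SD and axes from 0. The groups do not overlap in 10 of the 11, Eef2k being the exception, and in 13.7% of all tested genes. The 11 were picked by p on these same libraries, so the lack of overlap adds no support to their calls.

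Among the upstream kinases of AMPK, Camkk1 rose. It encodes a calcium and calmodulin-dependent kinase kinase that phosphorylates CaM kinases in neurons and can act on AMPK. Camkk1 had 126, 152, 162 and 132 CPM in ketogenic replicates 1 to 4, against 81.7, 98.7, 97.3 and 115 CPM in control replicates 1 to 4, with no overlap. Its log2 fold change was 0.54 ± 0.09 (SE, edgeR adjusted p = 0.00735), or 1.45-fold, and it passed in all 21 alternative fits. Its paralog Camkk2, the kinase better known to act on AMPK, had a log2 fold change of 0.04 (edgeR adjusted p = 0.80). The LKB1 partner genes Strada, Stradb, Cab39 and Cab39l lay between -0.04 and 0.07. So 1 of 6 genes of this list passed, against 6.52% of all tested genes.

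Of the kinases related to AMPK that LKB1 also activates, 1 of 12 fell and 1 rose. Among all tested genes 3.22% were lower and 3.3% higher. Sik1, a salt-inducible kinase that restrains CREB coactivators and is itself induced by CREB, had 22.2, 25.3, 20.6 and 23.1 CPM in ketogenic replicates 1 to 4. It had 33.0, 35.1, 30.8 and 30.8 CPM in control replicates 1 to 4, so the groups did not overlap. Its log2 fold change was -0.51 ± 0.08 (SE, edgeR adjusted p = 0.00558). Without ketogenic replicates 3 and 4 together its edgeR adjusted p was 0.0541, and 90 genes passed in all. Mark3, a microtubule affinity regulating kinase, averaged 78.7 ± 4.62 CPM in ketogenic and 65.0 ± 4.10 CPM in control libraries (SD, n = 4 each, edgeR adjusted p = 0.0229). That call was lost without ketogenic replicate 2 or control replicate 1, 2 or 3 (edgeR adjusted p of up to 0.0803). Over all genes these fits called 196, 146, 205 and 423 in that order, against 971 with all libraries.

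Among 16 genes of AMPK substrates 3 rose and 2 fell, against 3.3% higher and 3.22% lower among all tested genes. Ppargc1a, for a coactivator of mitochondrial genes, was lower, at 63.6 ± 3.56 CPM in ketogenic and 75.7 ± 5.73 CPM in control libraries (SD, n = 4 each). Its log2 fold change was -0.25 ± 0.06 (SE, edgeR adjusted p = 0.0349). Higher were Mlycd, for the enzyme that removes malonyl-CoA (0.30), the Rab regulator gene Tbc1d1 (0.30), and Eef2k, for the kinase that slows translation elongation (0.26), with edgeR adjusted p of 0.0457, 0.0488 and 0.0486. These 4 calls were lost in 11 to 13 of 21 alternative fits. Among those were removal of GC and length trends and the absence of ketogenic replicate 1 or 2 or control replicate 1, 2 or 3. Over all genes the fits named here called 146 to 588, against 971 in the main fit.

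In the amino acid arm that brings mTORC1 to the lysosome, 3 genes of both lists rose and 0 fell. Of all tested genes 3.3% were higher and 3.22% lower past the threshold. Counts this small are not read as a result about the lists. Of 13 RAG GTPase and Ragulator genes 1 rose, Lamtor4, a subunit of the Ragulator scaffold, at 18.0 ± 0.88 CPM in ketogenic and 13.6 ± 0.81 CPM in control libraries (SD, n = 4 each). Its log2 fold change was 0.41 ± 0.09 (SE, edgeR adjusted p = 0.0173). Of 16 GATOR, KICSTOR and amino acid sensor genes 2 rose. Nprl2, of the GATOR1 complex that turns mTORC1 off, averaged 33.3 ± 1.49 CPM in ketogenic and 26.5 ± 1.17 CPM in control libraries (edgeR adjusted p = 0.0173). Sesn1, for a stress-induced sestrin that also restrains mTORC1, averaged 75.6 ± 0.84 CPM in ketogenic and 62.0 ± 5.31 CPM in control libraries (edgeR adjusted p = 0.0194). By their known roles these 3 genes are an activator and 2 inhibitors of mTORC1. All 3 calls were lost without ketogenic replicate 2 or control replicate 1, and those of Lamtor4 and Sesn1 also without control replicate 2. That of Lamtor4 was lost after removal of GC and length trends too. In these fits the edgeR adjusted p was up to 0.0721, 0.0658 and 0.0735 for Lamtor4, Nprl2 and Sesn1. Over all genes these 4 fits called 196, 146, 205 and 312 in that order, against 971 in the main fit.

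Downstream, 1 of 8 mTORC2 substrate genes rose, against 3.3% of all tested genes. This was Sgk3, for a kinase of the Akt-related SGK family. Sgk3 had 11.8, 15.6, 14.7 and 17.0 CPM in ketogenic replicates 1 to 4, against 10.7, 10.5, 11.0 and 11.7 CPM in control replicates 1 to 4. The groups did not overlap by a narrow gap between ketogenic replicate 1 and control replicate 4. Sgk3 had a log2 fold change of 0.43 ± 0.11 (SE, edgeR adjusted p = 0.0355). That call was lost without ketogenic replicate 2, 3 or 4 or control replicate 1, 2 or 3 (edgeR adjusted p of up to 0.108). Over all genes these fits called 146 to 714, against 971 with all libraries. Akt1 and Akt2, well-known mTORC2 targets, had log2 fold changes of 0.11 and -0.13 (edgeR adjusted p of 0.229 and 0.209).

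The remaining lists had 0 genes past the threshold in edgeR. An unadjusted edgeR p under 0.05, counted below, was found for 24.6% of all tested genes. Of 16 mTORC1 substrates and effectors, 3 had an unadjusted p under 0.05, and the smallest was that of Maf1, for a repressor of RNA polymerase III (0.21 ± 0.06 in log2, SE, edgeR adjusted p = 0.0588). Maf1 passed in the DESeq2 Wald test. Of 9 further mTOR complex and assembly genes, 1 had an unadjusted p under 0.05, Tti1, of the assembly complex (-0.21, edgeR adjusted p = 0.173). Among the TSC partner Tbc1d7 and the 2 Rheb genes the smallest p was that of Rheb (0.08, edgeR adjusted p = 0.46), and 0 had an unadjusted p under 0.05. Of the 2 stress-induced mTORC1 inhibitor genes, Ddit4 averaged 42.9 ± 6.61 CPM in ketogenic and 37.1 ± 4.46 CPM in control libraries (edgeR adjusted p = 0.234), and again 0 reached an unadjusted p under 0.05.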

How the data were processed

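Messenger RNA of 8 brain libraries was sequenced. The authors deposited raw counts per gene symbol and FPKM values. Per the submitters' processing notes the builds are GRCm38 and mm10. How reads were aligned and counted, with which annotation and strand setting, is not given in the sources used here. Each deposited FPKM was the count scaled by its column's total and by 1 length per gene, within a relative spread of 1.79e-07.

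Ketogenic libraries were compared with control libraries in edgeR 4.0.16 (R 4.3.3) by the quasi-likelihood test on an intercept and diet. Low counts were filtered with filterByExpr, which kept 14895 genes, and libraries were scaled by TMM. The Benjamini-Hochberg adjustment was over all tested genes, and the threshold was an adjusted p of 0.05. The test was checked on simulated counts. CPM are after TMM. SE is the log2 fold change over the root of F. Alternatives used DESeq2 1.42.0, limma 3.58.1, other scalings and filters, a replicate block, a loess removal of GC and length trends (span 0.3, GC known for 98.1% of tested genes) and left-out libraries. Named genes were the 10 members, the genes past the threshold in each of 11 pathway lists (at most 4 in each direction) or else the one with the smallest p, and the 3 genes most correlated with each of 2 members. Prkag2, Prkag3, Camkk2, the LKB1 partners, Akt1 and Akt2 fall outside that rule and were chosen after their values were seen. A gene of the lists that the rule names is not reported here. The members and lists were chosen with earlier results of these data known. Counts split between near-identical copies (Rheb and Rps6 have pseudogenes) are uncertain. Positions are GENCODE M21 gene bounds on GRCm38.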

Additional observations from a re-analysis of the deposited data

Results flagged for a closer look

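Of 54 groups of 4 libraries (27 named genes by 2 diets), 3 held a library whose gap to the nearest other was large for the group's range, and chance gives such a gap in about 1 in 20 groups. Prkaa2 was at 70.0 CPM in control replicate 4, against 74.7 to 75.5 CPM in the other control libraries. Ppargc1a was at 69.0 CPM in ketogenic replicate 3, against 61.8 to 61.9 CPM in the other ketogenic libraries. Maf1 was at 54.9 CPM in ketogenic replicate 2, against 58.2 to 58.9 CPM in the other ketogenic libraries.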

How the results depend on the processing

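Of the 10 genes, 1 was past the threshold and higher (Mtor) in the DESeq2 Wald test and at an adjusted p under 0.1, and 1 was lower (Prkaa2) at an adjusted p under 0.1 and with the replicate block. Leaving out 1 library each gave 0 to 1 higher and 0 to 2 lower. The other pathway genes past the threshold were 5 higher with limma on log2(FPKM + 1), on log2(FPKM + 0.1) and after removal of GC and length trends, and 1 lower after that removal. Without ketogenic replicates 3 and 4 both, 1 was higher and 0 were lower. At an adjusted p under 0.01, 1 was higher and 1 lower. Leaving out 1 library each gave 1 to 14 higher and 1 to 3 lower.

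All genes past the threshold numbered 971. DESeq2 called 1719. There were 489 and 560 with limma on log2(FPKM + 1) and log2(FPKM + 0.1). With those trends removed there were 312 (154 higher), and 90 without ketogenic replicates 3 and 4 together. At an adjusted p under 0.1 there were 2009, and 79 at one under 0.01. With 1 library left out they ran from 146 (control replicate 1) to 1900 (control replicate 4). With the replicate number as a block they were 1528, and Prkaa2 and Maf1 passed. Same-numbered libraries deviated together with r of 0.02 to 0.08, under 0.1, so the numbers do not show a pairing, though ketogenic replicates 2 and 3 correlated best with their own number.

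Signs turned for Prkaa1, Stk11, Rictor and Tsc1. With those trends removed Prkaa1 was 0.0145, Stk11 -0.0394 and Rictor 0.0891 in log2, and with the block added 0.0199, -0.0397 and 0.0941. Rictor was 0.000829 and Tsc1 0.00632 without ketogenic replicates 3 and 4 together. With 1 library left out Rictor ran from -0.0705 to 0.0362 and Tsc1 from -0.0426 to 0.0109. The causes were not tested. Of the 10 genes, Prkaa1, Prkaa2 and Rictor had transcripts of 40.2% to 42.5% GC and the others of 51.7% to 59.5%. Each of the 10 had 512 or more counts in every library.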
